A study of Mus musculus with 3 samples.

Results

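Transcripts of 8 genes of the major histocompatibility complex (MHC) class II pathway, H2-Aa, H2-Ab1, H2-Eb1, Cd74, H2-DMa, H2-DMb1, H2-Oa and Ciita, were followed across the stromal cells of the aged mouse thymus. They are 8 of the 32293 features counted in each library. The genes were chosen by name, and none of them was used to sort barcodes into classes. A barcode with 2 or more unique molecular identifiers (UMIs, each standing for 1 captured RNA molecule) of Epcam was placed among thymic epithelial cells (TECs), one with 2 or more of Pecam1 among endothelial cells (ECs) and one with 2 or more of Pdgfra among fibroblasts (FBs). A further class, called Spp1-high, held barcodes with 5 or more UMIs of Spp1, at most 1 of Epcam and 0 of Ptprc, the gene for CD45. Barcodes that met 2 of these rules were left out.

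The data were 3 droplet-based single-cell RNA libraries of sorted CD45- thymic stroma from untreated C57BL/6 mice aged 20 months, 1 from Foxn1Lin females, 1 from Foxn1Lin males and 1 from wild type males. Foxn1Lin mice carry a Cre recombinase driven by Foxn1 together with a tdTomato reporter that Cre switches on for good, so that the reporter marks any cell that uses or once used Foxn1. Wild type mice carry neither. Each library pooled several thymi and was the only library of its group, so sex and genotype could not be compared with replicates, and every test set classes against each other within the 3 libraries, with p-values that measure the spread between these libraries alone. The wild type male library is titled CD45- while its cell type field reads CD45-PECAM1+, and it held 1072 TEC barcodes beside 893 EC barcodes. Sexes are those of the sample labels, whereas the shared protocol text speaks of female mice for all 3. Values of the 3 libraries are given in the order Foxn1Lin female, Foxn1Lin male, wild type male.

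The libraries held 8616, 3583 and 5478 called barcodes with medians of 4675, 7431 and 7947 UMIs. There were 529, 487 and 1072 TEC barcodes, 2171, 862 and 893 EC barcodes, 1885, 874 and 1740 FB barcodes and 13, 34 and 36 Spp1-high barcodes. A marker list of epithelial genes summed to 5909.7, 6326 and 4652 CPM, counts scaled to 1000000 UMIs, in TECs and to 131, 25.5 and 38.5 CPM in FBs, and the endothelial and fibroblast lists were likewise highest in the classes they name. Each list includes the gene that defines its class (Epcam, Pecam1 or Pdgfra), so part of this order was set by the rules. The Foxn1Lin female library shared 8 barcode sequences with the Foxn1Lin male and 14 with the wild type male library, which shared 3 with each other. RNA outside called barcodes was most frequent in the Foxn1Lin female library, at 26.5% of all UMIs against 12.9% and 9.46%.

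MHC class II molecules are pairs of an alpha and a beta chain that show peptides to CD4+ T cells. H2-Aa and H2-Ab1 encode the alpha and beta chains of I-A, and H2-Eb1 encodes the beta chain of I-E, whose alpha chain gene is inactive in C57BL/6 mice. Cd74 encodes the invariant chain, which escorts new class II molecules and plugs their groove. H2-DMa and H2-DMb1 encode chains of H2-DM, which removes the last fragment of the invariant chain and helps peptides exchange, while H2-Oa encodes the alpha chain of H2-O, which inhibits H2-DM. Ciita encodes the coactivator that switches on the whole set. In the thymus, class II on cortical TECs is needed for positive selection of CD4+ thymocytes, and class II on medullary TECs, many of which use Aire to transcribe tissue-restricted genes, serves negative selection and the making of regulatory T cells.

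The genes are neighbours for the most part. In GENCODE vM21 (GRCm38), H2-Oa lies at chr17:34092340-34095234 on the plus strand, followed by H2-DMa at chr17:34119541-34139101, H2-DMb1 at chr17:34153072-34160230 and H2-Ab1 at chr17:34257689-34269419, all on the plus strand. H2-Aa at chr17:34282744-34287823 is read from the minus strand, and H2-Eb1 at chr17:34305867-34316674 from the plus strand. Ciita at chr16:10480059-10528418 and Cd74 are on other chromosomes.

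Promoters of class II genes are known for an X box and a Y box, bound by the RFX and NF-Y complexes that hold CIITA. RefSeq promoter windows (GRCm38.p6, 250 bases before to 50 after the start) matched 5 of the 8 genes, with 2 windows for H2-DMa. GCAAC, from the X box, followed 10 to 40 bases on by ATTGG, from the Y box, was searched on both strands. The pair was found in H2-Oa, H2-Aa and H2-Eb1, and in 471 of 32851 windows (1.43%) of all genes. The stretches that hold it are shown because genes of both roles, peptide-binding chains and the H2-DM inhibitor, carry the same arrangement. They are written 5′ to 3′ on the gene's strand with both motifs in capitals.
H2-Aa: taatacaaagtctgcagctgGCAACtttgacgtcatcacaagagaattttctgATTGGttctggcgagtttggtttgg
H2-Eb1: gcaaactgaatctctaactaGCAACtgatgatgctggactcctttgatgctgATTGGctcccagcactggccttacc
H2-Oa: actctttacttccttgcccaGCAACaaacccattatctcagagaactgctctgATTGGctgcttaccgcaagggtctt
The H2-Aa stretch is chr17:34287847-34287924 (minus strand), the H2-Eb1 stretch chr17:34305756-34305832 (plus strand) and the H2-Oa stretch chr17:34092283-34092360 (plus strand). GCAAC began 81, 91 and 76 bases before the start of H2-Aa, H2-Eb1 and H2-Oa, with 28, 27 and 28 bases between the motifs. Of the 2 H2-DMa windows, one held GCAAC alone and the other ATTGG alone, and the H2-DMb1 window held ATTGG alone, against 35.2% and 37.4% of all windows for the single motifs, which can overlap other words of the same letters. These are matches of letters, not measured binding.

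TECs held far more class II RNA than ECs or FBs, in every library and for every one of the 8 genes, which all passed the filter on low counts. All 8 were higher in TECs than in ECs, where 33.2% of the genes tested were higher, and all 8 were higher in TECs than in FBs, where 34.0% were. Fold changes ran from 6.33-fold (H2-DMa) to 44.9-fold (H2-Oa) against ECs and from 10.98-fold to 106-fold, for the same pair of genes, against FBs. The median log2 fold change of the 8 was 3.95 against ECs and 4.63 against FBs, beside 0.19 and 0.24 over all genes tested.

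Among the peptide-binding chains, H2-Aa stood at 2340.3, 2876 and 2456 CPM in TECs, at 93.5, 111 and 196 CPM in ECs and at 66.7, 65.5 and 124 CPM in FBs. The lowest TEC value was several times the highest value of the other classes. The log2 fold change was 4.10 ± 0.45 (SE, adjusted p = 3.04e-05) against ECs and 4.82 ± 0.46 (SE, adjusted p = 1.36e-05) against FBs, each from edgeR with 3 libraries. H2-Ab1 was measured at 3014, 2547 and 2128 CPM in TECs, 125, 75.4 and 161 CPM in ECs and 114, 96.5 and 174 CPM in FBs. Its log2 fold changes were 4.22 ± 0.42 (SE, adjusted p = 1.75e-05) and 4.24 ± 0.42 (SE, adjusted p = 1.76e-05). H2-Eb1, the chain that lacks a partner in this strain, was nevertheless transcribed at 1802, 1867 and 1382 CPM in TECs against 76.4, 81.7 and 139 CPM in ECs and 66.6, 51.5 and 101.7 CPM in FBs. Here the log2 fold changes were 3.92 ± 0.45 (SE, adjusted p = 4.23e-05) and 4.44 ± 0.46 (SE, adjusted p = 2.23e-05).

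The invariant chain gene Cd74 reached 5375, 9277 and 6083 CPM in TECs, 217, 457 and 697 CPM in ECs and 148, 169.9 and 279 CPM in FBs, with log2 fold changes of 3.79 ± 0.43 (SE, adjusted p = 3.88e-05) and 4.98 ± 0.45 (SE, adjusted p = 9.39e-06). The Foxn1Lin male library was the highest for Cd74 in TECs, and the wild type male library the highest in ECs and FBs. The H2-DM chains differed least between the classes. H2-DMa was at 165, 136 and 138 CPM in TECs, 12.98, 16.5 and 35.9 CPM in ECs and 9.23, 11.5 and 18.3 CPM in FBs, and H2-DMb1 at 146, 130.2 and 122 CPM in TECs, 9.91, 17.3 and 29.5 CPM in ECs and 7.26, 7.51 and 13.4 CPM in FBs. Log2 fold changes of H2-DMa were 2.66 ± 0.32 (SE, adjusted p = 5.88e-05) and 3.46 ± 0.33 (SE, adjusted p = 1.35e-05), and those of H2-DMb1 2.70 ± 0.30 (SE, adjusted p = 3.52e-05) and 3.76 ± 0.31 (SE, adjusted p = 5.52e-06). H2-DMb1 has a near-identical neighbour, H2-DMb2, so reads that fit both could be lost or shifted between them. H2-DMb2 was itself at 217, 199 and 162 CPM in TECs and at 4.48, 1.02 and 3.52 CPM in FBs.

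H2-Oa, the inhibitor chain, and Ciita, the coactivator, showed the widest gaps to FBs. H2-Oa stood at 157, 126 and 111 CPM in TECs, from 1234, 1049 and 2674 UMIs, and at 5.08, 0.726 and 2.38 CPM in ECs and 2.17, 0.683 and 0.769 CPM in FBs. In FBs these were 32, 6 and 12 UMIs in all, where RNA free in the droplets, taken from barcodes too small to hold a cell, would give 1.83, 0.411 and 0.361 CPM. So the FB values were near that background, and the higher ones only as point values in the Foxn1Lin libraries. There, counting error on 32 and 6 UMIs spans the gap, so FB H2-Oa was not shown to exceed free RNA. The part of free RNA in the FB values, and so in the fold change of H2-Oa against FBs, was not tested. The log2 fold changes were 5.49 ± 0.43 (SE, adjusted p = 3.73e-06) against ECs and 6.73 ± 0.45 (SE, adjusted p = 1.99e-06) against FBs. Ciita was at 125, 80.05 and 101 CPM in TECs, 5.64, 2.18 and 10.00 CPM in ECs and 2.51, 0.911 and 2.95 CPM in FBs, with log2 fold changes of 3.98 ± 0.40 (SE, adjusted p = 1.69e-05) and 5.49 ± 0.43 (SE, adjusted p = 4.06e-06). All 16 differences of TECs against ECs and FBs were called under each of the 12 alternatives tried for them. Hematopoietic markers were also higher in TECs (804, 593 and 509 CPM) than in FBs (77.6, 18.1 and 20.1 CPM). Without barcodes that held any UMI of 16 genes of antigen-presenting blood cells, the log2 fold change against FBs was 4.22 for H2-Aa, 4.50 for Ciita and 5.24 for H2-Oa.

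**Figure D1:**
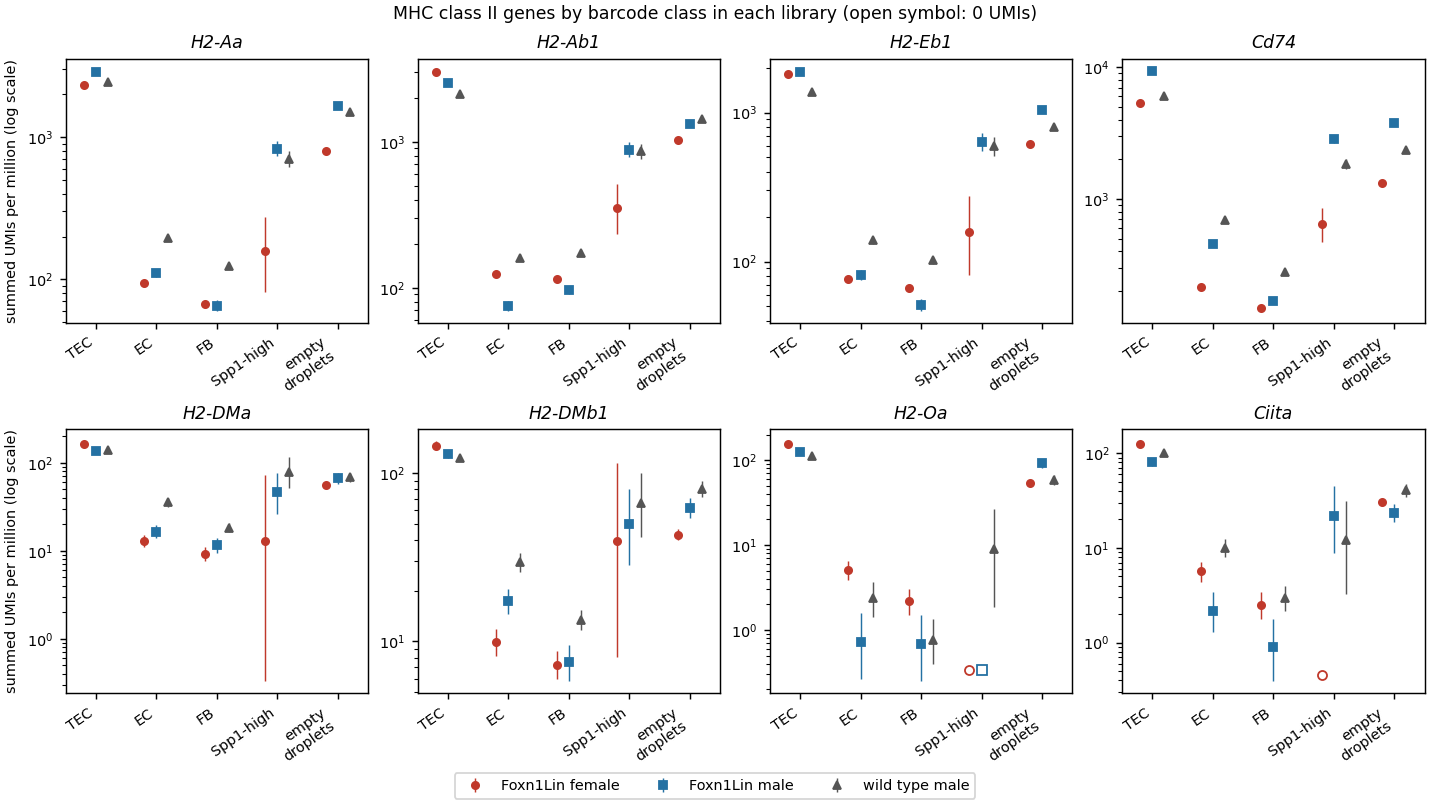
Level of each gene in CPM (log axis) in TECs, ECs, FBs, Spp1-high barcodes and empty droplets of the 3 libraries. Bars are 95% counting intervals and open symbols, drawn at an arbitrary height, mark 0 UMIs. H2-Aa stood at 2340.3, 2876 and 2456 CPM in TECs and at 66.7, 65.5 and 124 CPM in FBs, with Spp1-high barcodes between them at 157, 828 and 705 CPM.

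The empty droplets themselves were rich in class II RNA, with H2-Aa at 793, 1663 and 1509 CPM, so what free RNA could add to ECs and FBs was estimated from the mean content of an empty droplet. For H2-Aa it came to 36.4, 7.82 and 9.35 CPM in ECs and 26.6, 7.46 and 9.34 CPM in FBs. This is a large part of the Foxn1Lin female values and a small part of those of the males. For Cd74 the estimate was 60.7, 17.6 and 14.6 CPM in ECs. The proportions of the genes also differed between classes. H2-DMa UMIs per Cd74 UMI were 0.0599, 0.0360 and 0.0515 in ECs and 0.0622, 0.0677 and 0.0658 in FBs, against 0.0308, 0.0147 and 0.0227 in TECs and 0.0420, 0.0177 and 0.0289 in empty droplets, so that in each library ECs and FBs were above the droplets. For H2-Ab1 the ratio was 0.768, 0.568 and 0.624 in FBs, 0.576, 0.165 and 0.231 in ECs and 0.561, 0.275 and 0.350 in TECs, highest in FBs of these 3 classes in each library. The droplets stood at 0.776, 0.356 and 0.606, above the FBs in the Foxn1Lin female and below them in the male libraries. H2-Oa per Cd74 was 0.0234, 0.00159 and 0.00341 in ECs, below the 0.0412, 0.0245 and 0.0247 of the droplets in all 3. These ratios are descriptions, and no test was run on them.

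Class II RNA was found in nearly every TEC and was sparse in ECs and FBs. To set depth aside, each barcode was thinned to 2000 UMIs, which kept 513, 466 and 1043 TEC, 1868, 832 and 848 EC and 1853, 871 and 1716 FB barcodes and left out shallower ones. Summed UMIs of H2-Aa, H2-Ab1, H2-Eb1 and Cd74 then had medians of 19, 22 and 18 in TECs, 0, 0 and 1 in ECs and 0, 0 and 0 in FBs. None of the 4 genes was detected in 5.46, 5.79 and 4.31% of TECs, 55.03, 60.8 and 43.9% of ECs and 64.1, 76.3 and 61.3% of FBs. All 4 were detected in 67.8, 68.03 and 64.9% of TECs and in 1.46, 1.95 and 3.50% of FBs. Spread within a class was wide, since the richest 10% of barcodes held 62.7, 78.2 and 66.1% of these UMIs in FBs and 56.2, 61.7 and 45.7% in ECs, against 30.1, 33.7 and 31.02% in TECs.

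Single genes followed the same order. Cd74 had a UMI in 90.6, 92.1 and 91.9% of thinned TEC barcodes, 21.6, 29.8 and 42.9% of EC barcodes and 17.2, 11.5 and 21.2% of FB barcodes. Without thinning the shares were 94.7, 95.3 and 95.9% in TECs, 38.8, 46.98 and 57.00% in ECs and 38.8, 32.2 and 40.6% in FBs, at median depths of 11806, 13460 and 17890.5 UMIs in TECs, 4245, 7558 and 7129 in ECs and 7452, 9412 and 8266 in FBs. H2-Oa had a UMI in 18.3, 12.4 and 14.96% of thinned TECs, 0.803, 0 and 0.708% of ECs and 0.486, 0 and 0.175% of FBs. For Ciita the shares were 21.2, 11.2 and 16.7% in TECs, 1.07, 0.240 and 2.48% in ECs and 0.486, 0.230 and 0.583% in FBs. Free RNA would give 1.01, 0.105 and 0.252 CPM of Ciita in FBs, below the measured FB values in all 3 libraries. H2-DMa was detected in 19.1, 20.4 and 20.4% of thinned TECs and 1.83, 1.95 and 3.55% of FBs.

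**Figure D2:**
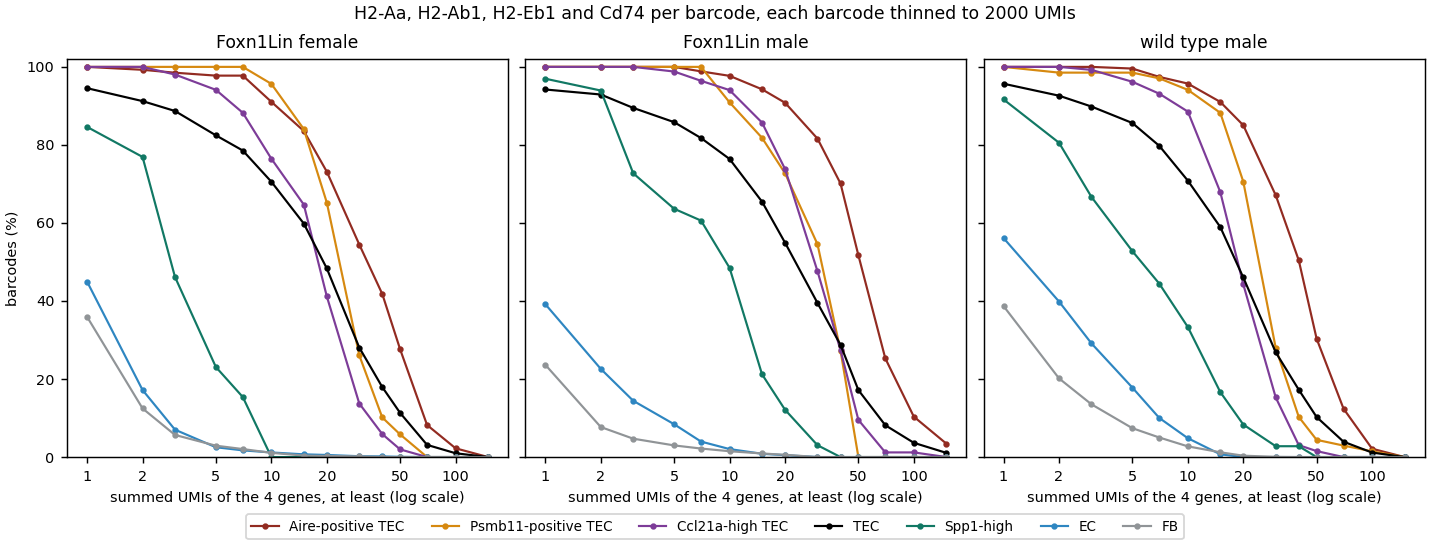
Percent of barcodes (vertical axis) with at least the given number of UMIs of H2-Aa, H2-Ab1, H2-Eb1 and Cd74 together (log axis), 1 panel per library, after each barcode was thinned to 2000 UMIs. Medians were 33, 52 and 40 UMIs in Aire-positive TECs and 0, 0 and 0 in FBs, and some curves cross.

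A small number of ECs and FBs were rich in class II RNA. Thinned barcodes with 10 or more UMIs of the 4 genes numbered 22, 17 and 41 in ECs (1.18, 2.04 and 4.83%) and 20, 13 and 47 in FBs (1.08, 1.49 and 2.74%). What else they carried depended on the library. In these ECs the epithelial list summed to 3530.4, 295 and 54.1 CPM against 153, 23.5 and 36.9 CPM in the other ECs, and the hematopoietic list to 1838, 283 and 49.2 CPM against 108, 65.3 and 225 CPM. So in the Foxn1Lin female library they held epithelial and blood cell RNA as well, while in the wild type male library the epithelial sum was slightly higher and the hematopoietic sum lower than in the other ECs. Their endothelial list stood at 2539, 6212 and 7205 CPM. Class II rich FBs had a fibroblast list of 8975, 11903 and 12713 CPM and an epithelial list of 1103, 57.99 and 105 CPM against 118, 24.8 and 36.00 CPM in other FBs. Their hematopoietic list was higher than in other FBs in all 3 libraries, at 789.9, 111 and 38.9 CPM against 68.6, 16.1 and 19.5 CPM. The barcodes were picked by their class II counts, so these values describe them and were not tested.

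ECs held more Cd74, H2-DMb1 and Ciita RNA than FBs, and the classes were not told apart for the other genes. These 3 of 8 genes were called higher in ECs, against a background of 19.6% of all genes tested, with a median log2 fold change of 0.93 over the 8 and 0.10 over all genes. The log2 fold change was 1.19 ± 0.39 (SE, adjusted p = 0.0338) for Cd74, 1.07 ± 0.30 (SE, adjusted p = 0.0157) for H2-DMb1 and 1.51 ± 0.42 (SE, adjusted p = 0.0164) for Ciita. For H2-Aa it was 0.73 ± 0.40 (SE, adjusted p = 0.179), for H2-DMa 0.79 ± 0.31 (SE, adjusted p = 0.0694) and for H2-Oa 1.24 ± 0.48 (SE, adjusted p = 0.0644), each with the EC value above the FB value in 3 of 3 libraries. H2-Ab1, at 0.02 ± 0.37 (SE, adjusted p = 0.981), was higher in ECs in 1 library and lower in the other two. Without the wild type male library none of the 8 was called by edgeR (1 at an unadjusted p under 0.05), and without the Foxn1Lin male library only Ciita was, with log2 fold changes of Cd74 of 0.90 and 0.95. Hematopoietic marker RNA was also higher in ECs (144, 69.8 and 215 CPM) than in FBs (77.6, 18.1 and 20.1 CPM), and the same 3 genes stayed called when barcodes with any Ptprc UMI were removed.

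**Figure D3:**
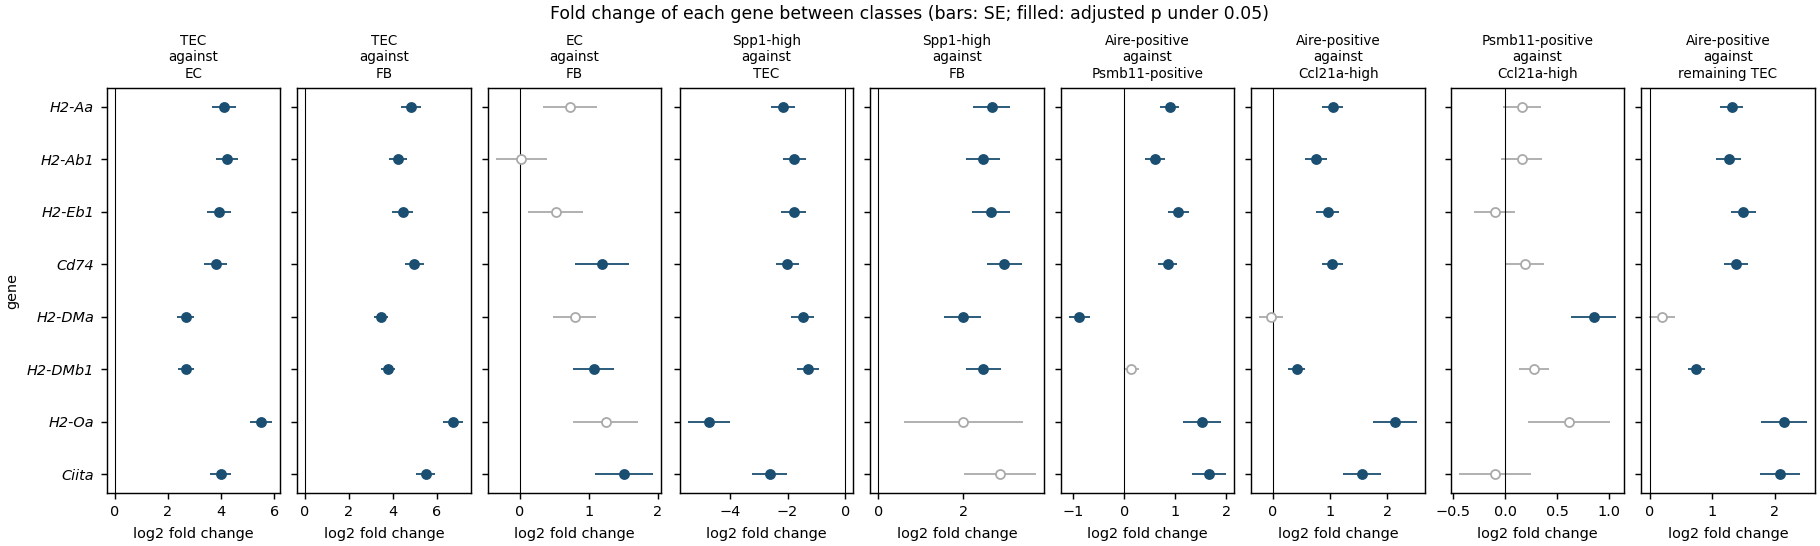
Log2 fold change of each gene (horizontal axis) in the 9 class comparisons, with standard errors as bars and filled points for an adjusted p under 0.05 (edgeR, 3 libraries). All 8 points are filled for TECs against ECs and against FBs, and 3 are filled for ECs against FBs.

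Spp1-high barcodes lay between TECs and FBs for the peptide-binding chains, the invariant chain and H2-DM, and held 3 H2-Oa UMIs in all. The class was small, with 83 barcodes over the 3 libraries. It carried fibroblast markers (3822, 3544 and 4700.3 CPM) at a lower level than FBs (14961, 17389.9 and 15652 CPM), smooth muscle and pericyte markers (1728, 1302 and 1080.5 CPM) and few epithelial ones (209, 21.8 and 96.9 CPM), so it is called here only by the rule that defined it. All 8 genes were lower than in TECs, against 10.9% of all genes tested, and 6 of 8 were higher than in FBs, against 3.96%. The median log2 fold change was -1.90 against TECs, where all genes had -0.41, and 2.56 against FBs, where all genes had -0.26.

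H2-Ab1 was at 353, 884 and 859.6 CPM in Spp1-high barcodes and Cd74 at 641, 2828 and 1843 CPM. The Foxn1Lin female library, with 13 such barcodes, was the lowest for all of the I-A, I-E and invariant chain genes, and every library was above its own FB value. The log2 fold change against FBs was 2.67 ± 0.44 (SE, adjusted p = 0.00456) for H2-Aa, 2.47 ± 0.40 (SE, adjusted p = 0.00444) for H2-Ab1, 2.65 ± 0.44 (SE, adjusted p = 0.00511) for H2-Eb1 and 2.97 ± 0.42 (SE, adjusted p = 0.00216) for Cd74. Against TECs it was -2.16 ± 0.42 (SE, adjusted p = 0.00638) for H2-Aa and -2.01 ± 0.40 (SE, adjusted p = 0.00692) for Cd74. H2-DMa, at 13.1, 46.7 and 78.7 CPM, and H2-DMb1, at 39.3, 49.8 and 66.6 CPM, gave 1.98 ± 0.44 (SE, adjusted p = 0.0197) and 2.47 ± 0.42 (SE, adjusted p = 0.00523) against FBs and -1.47 ± 0.41 (SE, adjusted p = 0.0293) and -1.29 ± 0.38 (SE, adjusted p = 0.0384) against TECs. These levels rested on 1, 15 and 26 UMIs of H2-DMa and 3, 16 and 22 of H2-DMb1, and the 95% counting interval of the single H2-DMa UMI of the Foxn1Lin female library, 0.331 to 72.9 CPM, held the FB value of that library. Free RNA would give 2.48, 0.317 and 0.412 CPM of H2-DMa and 1.92, 0.297 and 0.487 CPM of H2-DMb1 in this class.

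H2-Oa had 0, 0 and 3 UMIs in Spp1-high barcodes. At the level of TECs of the same libraries 88.9 UMIs would have been counted, so the 3 observed were 3.37% of that number, with an exact Poisson 95% interval of 0.696 to 9.86%. The same share was 26.7% for H2-Aa (interval 24.4 to 29.1%) and 41.2% for H2-DMa (interval 29.7 to 55.7%), all covering counting error only. Both Foxn1Lin libraries were at 0, which allows up to 39.3 CPM in the female and 9.34 CPM in the male at 3 counts per library. Against TECs edgeR gave an adjusted p of 0.00196 for H2-Oa, with a size that depends on how zeros are treated. Against FBs neither H2-Oa (adjusted p = 0.481) nor Ciita (log2 fold change 2.87 ± 0.84 SE, adjusted p = 0.0673), with 0, 7 and 4 UMIs, was called.

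These calls rested on few barcodes. Against FBs edgeR called 0 of 8 genes without the Foxn1Lin male library (7 at an unadjusted p under 0.05) and 1, Cd74, without the wild type male library, where the log2 fold changes of Cd74 were 2.35 and 3.01. Against TECs 4 were called without the Foxn1Lin male library and 0 without the wild type male library (8 at an unadjusted p under 0.05). Under DESeq2's scaling, 1242 genes were higher and 705 lower in Spp1-high barcodes than in FBs, beside 662 and 628 under edgeR, and the median of all genes moved from -0.26 to 0.04. Antigen-presenting blood cell genes other than Lyz2 summed to 26.2, 6.23 and 21.2 CPM in the class, with 14, 14 and 14 of the 16 genes at 0. One of these genes is Ptprc, which the rule of the class sets to 0.

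Within TECs, Aire-positive barcodes held the most RNA of H2-Aa, H2-Ab1, H2-Eb1 and Cd74 in each library, an order that did not hold in the Foxn1Lin female library once barcodes with a UMI of any of 16 blood cell genes were removed. With 0 UMIs required of 16 genes of antigen-presenting blood cells, 12, 11 and 24 Aire-positive barcodes were left, and these 4 genes summed to 9424, 25535 and 15667 CPM in them and 12178, 14381 and 11694 CPM in Psmb11-positive TECs. The Aire-positive barcodes left held 119689, 93243 and 435451 UMIs in all, against 2099676, 2190418 and 6383800 UMIs in the 134, 87 and 236 before. They thus had fewer UMIs per barcode in each library, so the filter also selected by depth. The part of depth in the changed order was not tested. TEC barcodes were split into those with 2 or more UMIs of Aire, 2 or more of Psmb11, the thymus-specific proteasome subunit of cortical TECs, or 10 or more of Ccl21a, the chemokine of a subset of medullary TECs. Barcodes with 2 of these were left out and the rest were called remaining TECs. There were 134, 87 and 236 Aire-positive, 69, 11 and 69 Psmb11-positive, 51, 85 and 131 Ccl21a-high and 253, 295 and 598 remaining TEC barcodes. A list of cortical TEC markers that includes Psmb11 summed to 12575, 1486 and 10511 CPM in Psmb11-positive TECs. The 11 barcodes of the Foxn1Lin male library were thus far below the other two libraries on the markers of the class they stand for, and fold changes between Aire-positive and Psmb11-positive TECs are given with and without that library.

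H2-Aa was at 3696, 4685 and 4109 CPM in Aire-positive, 2266, 2114 and 2538 CPM in Psmb11-positive, 1659, 2529 and 1932 CPM in Ccl21a-high and 1475, 1960.3 and 1505 CPM in remaining TECs. The Aire-positive values did not overlap those of any other subset. For H2-Aa the log2 fold change of Aire-positive TECs was 0.89 ± 0.18 (SE, adjusted p = 0.00231) against Psmb11-positive, 1.04 ± 0.18 (SE, adjusted p = 0.00104) against Ccl21a-high and 1.31 ± 0.18 (SE, adjusted p = 0.000279) against remaining TECs. H2-Ab1 was at 4374, 4001 and 3258 CPM in Aire-positive and 3428, 2074 and 2485 CPM in Psmb11-positive TECs, a difference of 0.60 ± 0.20 (SE, adjusted p = 0.0266) that was not called without the Foxn1Lin male library (adjusted p = 0.188) or without the wild type male library (adjusted p = 0.0892). H2-Eb1, at 2988, 3189 and 2371 CPM in Aire-positive and 1609, 1200.0 and 1365 CPM in Psmb11-positive TECs, differed by 1.06 ± 0.20 (SE, adjusted p = 0.0014). Cd74 reached 8742, 15324 and 9866 CPM in Aire-positive TECs, with 5160.3, 7315 and 6493 CPM in Psmb11-positive and 3642, 8841 and 4673 CPM in Ccl21a-high TECs. Its log2 fold changes were 0.85 ± 0.19 (SE, adjusted p = 0.00342) and 1.04 ± 0.19 (SE, adjusted p = 0.0013). Remaining TECs were the lowest subset for Cd74 in each library, at 3102, 6009 and 3826 CPM, and likewise for H2-Ab1, at 1743, 1692 and 1324 CPM, and H2-Eb1, at 1055, 1132 and 792 CPM. In Ccl21a-high TECs H2-Ab1 stood at 2298, 2582 and 1999 CPM and H2-Eb1 at 1302, 1882 and 1235 CPM, below the Aire-positive values of the same library in each case. Without the Foxn1Lin male library the log2 fold change between Aire-positive and Psmb11-positive TECs was 0.72 for H2-Aa (adjusted p = 0.0276), 0.39 for H2-Ab1, 0.86 for H2-Eb1 (adjusted p = 0.0141) and 0.70 for Cd74 (adjusted p = 0.0373). With blood cell genes at 0 none of these 4 was called, at 0.11 for H2-Aa (adjusted p = 0.838), -0.11 for H2-Ab1 (adjusted p = 0.824), 0.55 for H2-Eb1 (adjusted p = 0.175) and 0.39 for Cd74 (adjusted p = 0.414). The calls against Ccl21a-high TECs ended as well, at 0.33 (adjusted p = 0.529) for H2-Aa, 0.12 (adjusted p = 0.831) for H2-Ab1, 0.48 (adjusted p = 0.269) for H2-Eb1 and 0.64 (adjusted p = 0.189) for Cd74, while those of the 4 genes against remaining TECs did not.

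Of the 8 genes, 6 were higher and 1 was lower in Aire-positive than in Psmb11-positive TECs, against 26.5% and 21.6% of all genes tested. Against Ccl21a-high TECs 7 were higher (21.9% of all genes), and against remaining TECs 7 were higher (18.3% of all genes). The median log2 fold changes of the 8 were 0.87, 1.0 and 1.34, beside 0.06, 0.04 and -0.02 over all genes. These comparisons share the Aire-positive barcodes, so they are not separate evidence. In thinned barcodes the medians of the 4 summed genes were 33, 52 and 40 UMIs in Aire-positive, 22, 30 and 24 in Psmb11-positive and 18, 29 and 18 in Ccl21a-high TECs, and no thinned barcode of these subsets was without all 4 genes. Among remaining TECs 11.8, 9.82 and 7.87% had none of them.

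**Figure D4:**
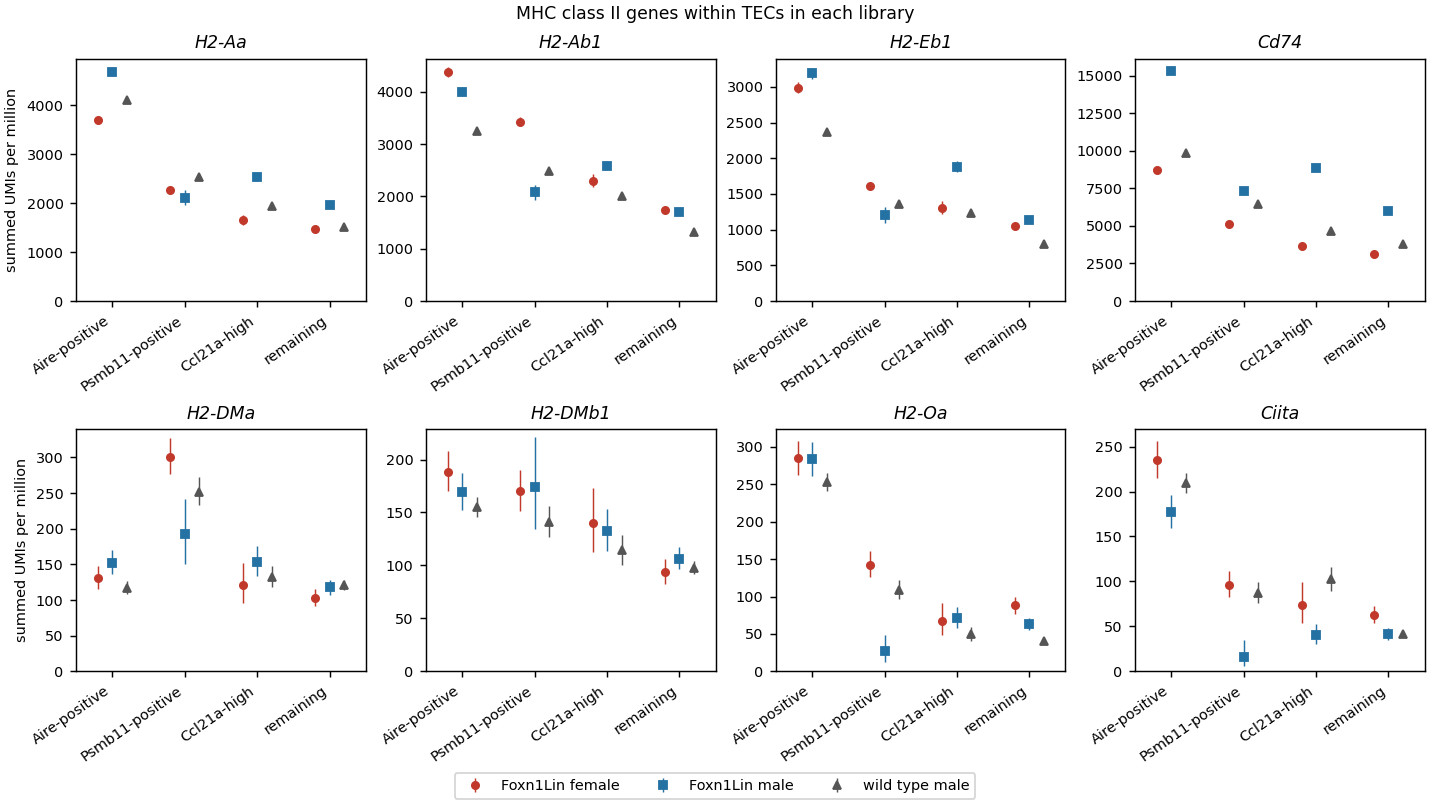
Level of each gene in CPM (linear axis from 0) in the 4 TEC subsets of the 3 libraries, with 95% counting intervals as bars. For H2-Oa the Aire-positive values of 285, 284 and 253 CPM lie above all others, and for H2-DMa the Psmb11-positive values of 301, 192 and 252 CPM do.

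The coactivator and the inhibitor showed the widest differences. Ciita was at 235, 177 and 209 CPM in Aire-positive, 95.9, 16.04 and 87.5 CPM in Psmb11-positive, 74.2, 40.5 and 102.4 CPM in Ccl21a-high and 62.6, 41.3 and 41.4 CPM in remaining TECs. The Psmb11-positive value of the Foxn1Lin male library rested on 6 UMIs. Log2 fold changes of Ciita were 1.66 ± 0.34 (SE, adjusted p = 0.00207), 1.56 ± 0.33 (SE, adjusted p = 0.00327) and 2.08 ± 0.32 (SE, adjusted p = 0.00053), and without the Foxn1Lin male library the first was 1.29 (adjusted p = 0.00524). H2-Oa was at 285, 284 and 253 CPM in Aire-positive, 143, 26.7 and 109 CPM in Psmb11-positive, 67.8, 70.8 and 49.4 CPM in Ccl21a-high and 88.1, 62.8 and 39.98 CPM in remaining TECs. Its log2 fold changes were 1.52 ± 0.37 (SE, adjusted p = 0.00591), 2.14 ± 0.38 (SE, adjusted p = 0.00114) and 2.15 ± 0.36 (SE, adjusted p = 0.000934), and the first was 1.14 (adjusted p = 0.00887) without the Foxn1Lin male library. With blood cell genes at 0 H2-Oa was no longer called against Psmb11-positive TECs, at 1.03 (adjusted p = 0.101), and was called against Ccl21a-high TECs, at 1.71 (adjusted p = 0.0162). Ciita was called against both, at 1.28 (adjusted p = 0.0126) and 1.14 (adjusted p = 0.0242). At 2000 UMIs a barcode, H2-Oa was detected in 35.8, 35.6 and 40.6% of Aire-positive, 20.3, 0 and 11.8% of Psmb11-positive, 15.7, 8.33 and 4.58% of Ccl21a-high and 8.44, 6.18 and 6.47% of remaining TECs.

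H2-DMa was the exception among the 8. It was highest in Psmb11-positive TECs, at 301, 192 and 252 CPM, against 131, 152 and 117 CPM in Aire-positive, 121, 154 and 132 CPM in Ccl21a-high and 103, 118 and 121 CPM in remaining TECs. The Psmb11-positive values did not overlap those of the other subsets. Aire-positive TECs differed from Psmb11-positive TECs by -0.88 ± 0.21 (SE, adjusted p = 0.00559) and Psmb11-positive from Ccl21a-high TECs by 0.85 ± 0.22 (SE, adjusted p = 0.0287), the only one of the 8 genes called in that comparison, where 5.16% of all genes were higher. Without the Foxn1Lin male library these were -1.14 (adjusted p = 0.0048) and 1.11 (adjusted p = 0.0244), with H2-Oa called as well (1.10, adjusted p = 0.0459). Without the Foxn1Lin female or the wild type male library the log2 fold change was -0.65 (adjusted p = 0.0578) and -0.78 (adjusted p = 0.0655) for Aire-positive against Psmb11-positive TECs, and 0.59 (adjusted p = 0.198) and 0.85 (adjusted p = 0.198) for Psmb11-positive against Ccl21a-high TECs, in the same direction but not called. H2-DMa did not differ detectably between Aire-positive and Ccl21a-high TECs (log2 fold change -0.03 ± 0.21 SE, adjusted p = 0.941). With blood cell genes at 0 it was at -0.84 (adjusted p = 0.128) in that comparison and at -1.59 (adjusted p = 0.00625) against Psmb11-positive TECs. Its partner H2-DMb1 was at 188, 169 and 155 CPM in Aire-positive and 170.3, 174 and 141 CPM in Psmb11-positive TECs (0.14 ± 0.14 (SE, adjusted p = 0.446), and 0.16 without the Foxn1Lin male library), and differed from Ccl21a-high TECs by 0.42 ± 0.14 (SE, adjusted p = 0.0385). With blood cell genes at 0 that difference turned to -0.01 (adjusted p = 0.987).

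The inhibitor chain and the H2-DM alpha chain were thus in different proportion in the subsets. H2-Oa UMIs per H2-DMa UMI were 2.17, 1.86 and 2.16 in Aire-positive TECs, 0.474, 0.139 and 0.433 in Psmb11-positive TECs and 0.560, 0.460 and 0.374 in Ccl21a-high TECs. All 3 Aire-positive ratios were above every ratio of the other subsets. Because the genes differ in length and capture, the ratio compares subsets and does not count molecules of one gene against the other. The ratio was not tested.

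Along the number of Aire UMIs in a TEC barcode, the 4 summed genes were at 9207, 11369 and 8492 CPM with 0 Aire UMIs, 11809, 21778 and 10589 CPM with 1, 17171, 32009 and 20142 CPM with 2 to 4 and 19991, 25439 and 19651 CPM with 5 or more. Each step up to 2 to 4 UMIs was higher in 3 of 3 libraries, and the last step was higher in 1. H2-Oa went from 93.4, 36.8 and 49.3 CPM at 0 to 275, 240.4 and 235 CPM at 5 or more, and Ciita from 75.3, 32.5 and 58.8 to 248, 180.2 and 217 CPM. H2-DMa was at 178, 133 and 151 CPM at 0 and 131, 148 and 121 CPM at 5 or more, lower in 2 of 3 libraries. Median depth was 9780.5, 12222 and 14687 UMIs at 0 and 16710, 28238 and 24932 at 5 or more, and the part of depth in these steps was not tested, although the thinned medians above compare subsets at 1 depth.

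**Figure D5:**
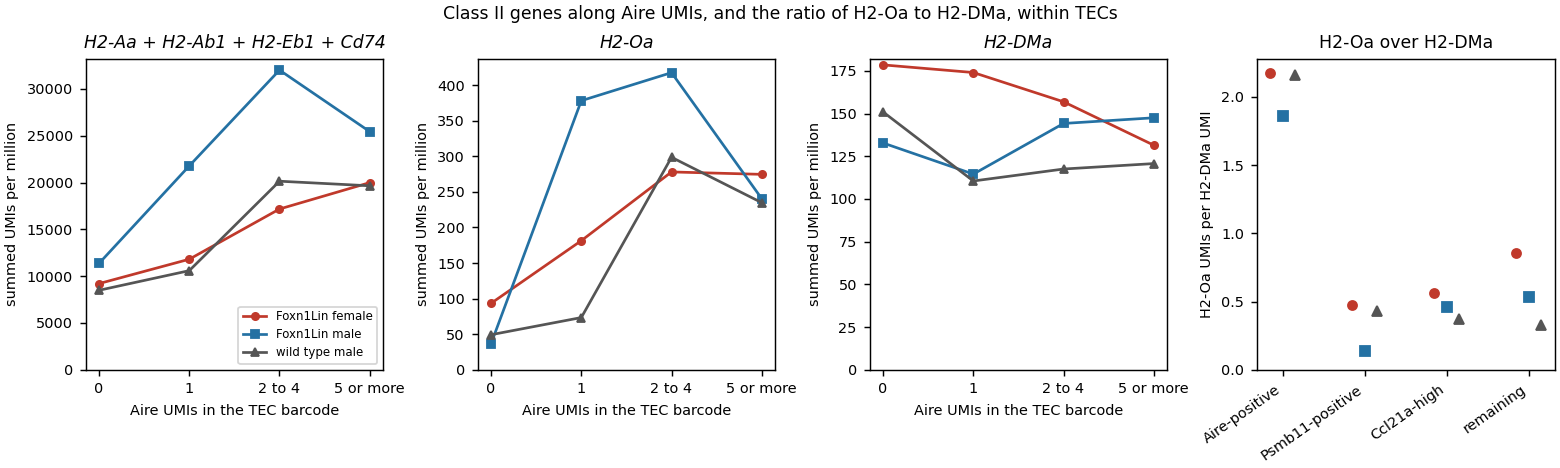
Levels in CPM of the 4 summed genes, H2-Oa and H2-DMa in TEC barcodes grouped by their Aire UMIs, and H2-Oa UMIs per H2-DMa UMI in the 4 TEC subsets, each line or point 1 library. The summed genes and H2-Oa were higher at 2 or more Aire UMIs than at 0 in every library, and the ratio was 2.17, 1.86 and 2.16 in Aire-positive TECs.

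RNA of antigen-presenting blood cells moved with the Aire-positive subset. Without Lyz2, this list of 16 genes summed to 552, 434 and 468 CPM there, 199.6, 2.67 and 105 CPM in Psmb11-positive and 93.6, 21.7 and 24.5 CPM in Ccl21a-high TECs. Laptm5 made up most of it, at 320.0, 285 and 324 CPM, followed by Fcer1g at 67.6, 54.3 and 59.2 CPM, whereas the leukocyte marker Ptprc was at 23.3, 5.48 and 11.7 CPM. Lyz2 was at 444, 271 and 199 CPM. Of the 16 genes 1, 2 and 0 were at 0 in Aire-positive TECs. In barcodes called hematopoietic, with 2 or more Ptprc UMIs and no class, Ptprc was at 782, 1273 and 1589 CPM. With every barcode that had a Ptprc UMI removed, a choice made after the data were seen, 119, 82 and 227 Aire-positive barcodes were left and the number of genes called was 7 of 8 against each of the 3 other subsets, as before. Requiring 0 UMIs of all 16 genes left 12, 11 and 24 Aire-positive barcodes, and 2 (H2-DMa and Ciita), 2 (H2-Oa and Ciita) and 6 of the 8 genes were called against Psmb11-positive, Ccl21a-high and remaining TECs. The part of this RNA in the Aire-positive levels beyond these measurements was not tested, nor was that of depth, which was lower in the barcodes left. Against remaining TECs the log2 fold change was then 1.04 for H2-Aa and 3.11 for H2-Oa.

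Other genes of the pathway followed only in part. From a list of 30 names fixed for the pathway, 26 were in the files and all 26 were tested. Between TECs and ECs 15 were higher and 7 lower in TECs (median log2 fold change 0.92), where 33.2% and 21.3% of all genes tested were. Between TECs and FBs 13 were higher and 3 lower (median 0.60), against 34.0% and 19.1% of all genes. The medians of all genes were 0.19 and 0.24. The further class II chains moved with the members: H2-Eb2 was higher in TECs than in FBs by 6.10 ± 0.42 (SE, adjusted p = 2.22e-06) and H2-Ob, the beta chain of H2-O, by 5.25 ± 0.46 (SE, adjusted p = 7.7e-06). The costimulatory ligands Cd80 and Cd86 and the receptor Cd40 were higher as well, by 6.01 ± 0.37 (SE, adjusted p = 1.37e-06), 4.91 ± 0.69 (SE, adjusted p = 0.00039) and 3.89 ± 0.40 (SE, adjusted p = 2.18e-05). Genes of the DNA-bound complexes did not share this. Rfx5 differed by 0.51 ± 0.20 (SE, adjusted p = 0.054), Rfxank by -0.08 ± 0.28 (SE, adjusted p = 0.842) and Nfyb by -0.19 ± 0.18 (SE, adjusted p = 0.418) between TECs and FBs, and only Rfxap was called among the 6 RFX and NF-Y genes (log2 fold change 0.69 ± 0.23 SE, adjusted p = 0.0243). Of the interferon-gamma route that induces Ciita, the receptor gene Ifngr1 was lower in TECs (log2 fold change -2.47 ± 0.27 SE, adjusted p = 3.03e-05).

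Between TEC subsets Ctss was higher and Ctsl lower in Aire-positive than in Psmb11-positive TECs. Ctss, the cathepsin that trims the invariant chain in blood-derived cells, was at 179, 166 and 149 CPM in Aire-positive and 7.72, 0 and 6.67 CPM in Psmb11-positive TECs (log2 fold change 4.78 ± 0.31 SE, adjusted p = 2.76e-06). Ctsl, the cathepsin that cortical TECs use for the same step, was at 123, 156 and 158 CPM and 8633, 6659.9 and 8130.1 CPM (log2 fold change -5.74 ± 0.50 SE, adjusted p = 9.61e-06). Of the 26 genes 9 were higher and 7 lower in Aire-positive than in Psmb11-positive TECs, where 26.5% and 21.6% of all genes were. Against Ccl21a-high TECs 11 were higher and 6 lower, beside 21.9% and 18.7% of all genes. H2-Ob, at 36.2, 44.7 and 50.1 CPM in Aire-positive and 3.86, 0 and 2.75 CPM in Psmb11-positive TECs, went with its partner H2-Oa (log2 fold change 3.86 ± 0.56 SE, adjusted p = 0.00023). H2-Eb2 was at 356, 359.7 and 361 CPM in Aire-positive and 20.98, 28.2 and 29.3 CPM in Ccl21a-high TECs (log2 fold change 3.76 ± 0.26 SE, adjusted p = 4.12e-06). Cd83, which stabilises class II on cortical TECs, was lower in Aire-positive than in Psmb11-positive TECs (log2 fold change -1.94 ± 0.34 SE, adjusted p = 0.000926) and higher than in Ccl21a-high TECs (log2 fold change 5.43 ± 0.63 SE, adjusted p = 7.04e-05). Without the Foxn1Lin male library the differences from Psmb11-positive TECs were 4.52 ± 0.25 (SE, adjusted p = 0.000128) for Ctss, -5.87 ± 0.42 (SE, adjusted p = 0.000206) for Ctsl, 3.75 ± 0.41 (SE, adjusted p = 0.000571) for H2-Ob and -2.26 ± 0.33 (SE, adjusted p = 0.00182) for Cd83, all on the log2 scale. One or more of the 16 blood cell genes had a UMI in 91.04, 87.4 and 89.8% of Aire-positive and 52.2, 9.09 and 33.3% of Psmb11-positive barcodes. With those genes at 0, edgeR called Ctss higher (adjusted p = 5.77e-05), H2-Ob higher (adjusted p = 0.00233) and Ctsl lower (adjusted p = 3.7e-05) in Aire-positive TECs, while Cd83, at -1.49, was not called (adjusted p = 0.0632).

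Outside the pathway, the genes whose levels over the 12 class and library profiles were most like the mean of H2-Aa, H2-Ab1, H2-Eb1 and Cd74 were, in order, Fbxo2, Pak3, Slc30a2, Spint1, Oasl2, Me2, Htr7, Gm20275, Perp and Bcl11a. For these 10 of 10590 genes compared, Pearson's r of log2(CPM + 1) ran from 0.95 to 0.97. Fbxo2 stood at 82.8 to 264 CPM in TECs and 0.911 to 2.76 CPM in FBs, and Oasl2, an interferon-induced gene, at 292 to 399 and 52.9 to 115 CPM. The 12 profiles come from 3 libraries and fall into 4 classes, so these correlations are descriptions of the class pattern.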

How the data were processed

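CD45- thymic stroma of 3 libraries was sequenced by droplet-based 3′ RNA capture, and the authors deposited matrices of UMI counts per gene and barcode, made with Cell Ranger (7.01 in the labels, 7.0.1 in the headers of the called matrices) against mm10 (GRCm38) with added reporter sequences. Raw counts of called barcodes were used, and matrices of all barcodes, whose headers name Cell Ranger 4, gave the empty droplets, so values of droplets and classes may come from different versions. Free RNA in a class was estimated as the mean content of an empty droplet per barcode.

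Counts were summed per library and class and tested with edgeR 4.0.16 in R 4.3.3 (quasi-likelihood, TMM, filterByExpr, library as block, Benjamini-Hochberg over all genes; SE from the F statistic), with calls at an adjusted p under 0.05. The 4 classes and the 4 TEC subsets were fitted apart. No test compared libraries. The block is the library itself, since its classes share mice and droplets, and the fit without it stands under the alternatives. The steps were tested on simulated data. CPM intervals are exact Poisson and shares were thinned to 2000 UMIs (seed 1), both covering counting error only.

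The 8 genes, marker lists and pathway list were chosen with earlier results of these data known. The genes named are the 8, the pathway and blood cell lists, and the 10 genes most alike by Pearson's r among those at 20 CPM or more in a profile.

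Alternatives were DESeq2 1.42.0, no filter, no block, each library left out, a filter on single barcodes (over 1000 genes or under 20% mitochondrial UMIs) with 2 of the study's indicators, which the study used with total counts and to remove clusters, blood cell genes at 0, no Ptprc UMI (chosen after seeing the data), other class thresholds, and the 3.9% of barcodes with the highest Scrublet score (scanpy 1.11.5) dropped, since its own threshold called only 0, 15 and 1 barcodes.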

Additional observations from a re-analysis of the deposited data

Results flagged for a closer look

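Psmb11-positive and Ccl21a-high TECs differed in opposite directions between libraries for 6 of the 8 genes, and for 5 of them with 95% counting intervals of the ratio on either side of 1. For these 5 the log2 ratio of CPM in the Foxn1Lin female and wild type male libraries was 0.45 and 0.39 for H2-Aa, 0.58 and 0.31 for H2-Ab1, 0.30 and 0.14 for H2-Eb1, 0.50 and 0.47 for Cd74 and 1.08 and 1.14 for H2-Oa. In the Foxn1Lin male library it was -0.26 for H2-Aa, -0.32 for H2-Ab1, -0.65 for H2-Eb1, -0.27 for Cd74 and -1.41 for H2-Oa. The other was Ciita, with 0.37 in the Foxn1Lin female, -1.34 in the Foxn1Lin male and -0.23 in the wild type male library, where the intervals of the Foxn1Lin female and the wild type male held a ratio of 1. The Foxn1Lin male library held 11 Psmb11-positive barcodes, and with 1 library per group the difference between libraries was not tested.

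H2-Ab1 in ECs against FBs was also higher in 1 library and lower in the others, with log2 ratios of 0.13 in the Foxn1Lin female, -0.36 in the Foxn1Lin male and -0.11 in the wild type male library. This difference was not tested either.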

How the results depend on the processing

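Of 864 alternative log2 fold changes of the 8 genes, 772 kept their direction and their side of the threshold, 66 lost the call, 5 gained it and 21 turned. Without the library block, 8 lost the call and 64 stayed the same. TECs against ECs and FBs had 8 of 8 genes called throughout, and Aire-positive against remaining TECs 6 or 7. Leaving out 1 library gave 0 to 4 called genes for ECs against FBs (3 with all 3), 0 to 6 for Spp1-high against TECs (8 with all 3), 0 to 6 for Spp1-high against FBs (6 with all 3), 5 to 6 for Aire-positive against Psmb11-positive (7 with all 3) and against Ccl21a-high TECs (7 with all 3), and 0 to 2 for Psmb11-positive against Ccl21a-high TECs (1 with all 3). With blood cell genes at 0 there were 4 for Spp1-high against TECs, 2 for Aire-positive against either Psmb11-positive or Ccl21a-high TECs and 0 for the last 2 against each other. Without the library block, the unpaired fit, that last count was 0 in edgeR, while DESeq2 with the block gave 1. In each edgeR fit that called 0, by either of these settings or without the Foxn1Lin female or the wild type male library, 1 of the 8 genes had an unadjusted p under 0.05 in that comparison.

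H2-Ab1 turned in ECs against FBs to -0.13 without a filter, -0.0455 with blood cell genes at 0, -0.0403 without doublets by score, and -0.15 to -0.00349 without 1 library. H2-Oa in Spp1-high barcodes against FBs ran from -6.23 to 2.66 without 1 library, turning without the wild type male, and was -5.36 with blood cell genes at 0; where it turned, the class held 0 UMIs and the value is no bound. With blood cell genes at 0, Aire-positive TECs turned for H2-Ab1 (-0.11) and H2-DMb1 (-0.17) against Psmb11-positive, H2-DMb1 (-0.0135) against Ccl21a-high and H2-DMa (-0.62) against remaining TECs. H2-DMa in Aire-positive against Ccl21a-high TECs turned to 0.078 in DESeq2, 0.0982 without Ptprc UMIs and 0.0167 without doublets by score, ran from -0.059 to 0.0622 without 1 library and was -0.84 with blood cell genes at 0. For Psmb11-positive against Ccl21a-high TECs, leaving out 1 library gave -0.00253 to 0.41 for H2-Aa and -0.0686 to 0.44 for H2-Ab1, turning without the Foxn1Lin female, and -0.31 to 0.21 for H2-Eb1, turning without the Foxn1Lin male. Without doublets by score H2-Eb1 turned there to 0.0782 and Ciita to 0.0248. None of these turned values was called, and the cause was not tested.

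Over all genes, calls moved from 1290 to 1947 in DESeq2 and to 287 and 210 without the Foxn1Lin male and wild type male libraries for Spp1-high against FBs. The same removals moved 3097 to 1000 and 621 against TECs and 6150 to 3640 and 3500 for ECs against FBs. Calls in Psmb11-positive against Ccl21a-high TECs fell from 1714 to 834 without the block, 760 without the Foxn1Lin female and 214 without the wild type male library. Aire-positive TECs went from 6705, 5651 and 5500 calls against Psmb11-positive, Ccl21a-high and remaining TECs to 4209, 3258 and 2761 without the wild type male library and 3145, 2429 and 2918 with blood cell genes at 0, where Psmb11-positive against Ccl21a-high TECs had 739 and Spp1-high barcodes against TECs 1995. The 83 Spp1-high barcodes and the 11 Psmb11-positive barcodes of the Foxn1Lin male library limit the comparisons that use them by their number. The part of barcode number in the moved calls was not tested.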

Other observations

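Remaining TECs, which passed none of the Aire, Psmb11 and Ccl21a thresholds, were divided by Cldn3, a claudin found in a part of the medullary epithelium. The study also proposes claudin-3 as a marker of an age-associated TEC subset that lacks typical cortical and medullary markers. No barcode was assigned to either kind of cell here. Those with 2 or more Cldn3 UMIs held 84.6, 88.4 and 103 CPM of H2-DMa, and those with 0 held 137, 141 and 154 CPM, so that the Cldn3-positive value was the lower one in 3 of 3 libraries. H2-Oa was the other way round, at 101, 109 and 45.7 CPM and 66.7, 40.96 and 30.2 CPM. Cd74 followed no such order, at 3479, 5291 and 3923 CPM and 2607, 6502 and 3685 CPM. Krt8, a keratin of simple epithelia, stood at 2672, 4037 and 2565 CPM and 801, 1429 and 766 CPM, and median depth was 11332, 16534 and 20588 UMIs and 6340, 8910 and 10954 UMIs. These are values with no test.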
